A study of Homo sapiens with 8 samples.

Results

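The genes described here are the subunits of the vacuolar H+-ATPase (V-ATPase) and the hydrolases and helper proteins of the lysosome, 43 genes listed by name. A gene counted as measured when a probe matched to it by RefSeq accession stood well above background on each of the 8 arrays, and the brightest such probe was used. By this rule 40 of the 43 genes were measured, among 10961 measured genes in all. They were 16 of 18 V-ATPase subunits and 24 of 25 hydrolases and other members.

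The study asked which transcripts miR-634 brings to Argonaute 2 (AGO2), the protein that holds a miRNA on its target mRNA. A431 cells, a human epidermoid carcinoma line, were transfected with 10 nM of miR-NC, a negative control miRNA, or of miR-634, and were lysed after 24 h. RNA recovered with an AGO2 antibody (RIP) and input RNA were each hybridized in duplicate, giving 4 groups of 2 one-color arrays, an input and a RIP group for each transfected miRNA. All cells therefore carried a transfected miRNA, and untransfected cells were not analyzed here. The sample labels name a normal rabbit IgG antibody for the input arrays, whereas the methods of the study call them total RNA. The methods call each experiment a duplicate without saying whether the duplicates came from separate transfections, so the p-values measure only the spread between these arrays. The antibody takes AGO2 with every miRNA it holds, so RIP levels in miR-634 cells also contain targets of the miRNAs of A431 itself.

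The V-ATPase is a rotary proton pump. Its V1 sector, in the cytosol, splits ATP, and its V0 sector, in the membrane, passes protons into the lysosome. The hydrolases are made in the endoplasmic reticulum, are carried to the lysosome mostly by mannose 6-phosphate receptors, and work in the acid that the pump maintains. Many of these genes are targets of the transcription factor TFEB, which binds the CLEAR motif, whose core is the E-box CACGTG.

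The sequences that bear on the design are those of the transfected miRNA and of the E-boxes. The mature miR-634 sequence from RefSeq (GRCh38.p14, chr17:66787132-66787153, + strand) is shown with its seed, bases 2 to 8, in capitals.
hsa-miR-634: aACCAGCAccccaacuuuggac

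A RefSeq promoter (GRCh38.p14), from 250 bases before to 50 bases after the start of the gene, was at hand for 32 of the 43 listed genes, and 9 of these (28.1%) held CACGTG, which reads the same on both strands. The share was 7.44% of all 27305 promoters and 10.3% of the 8757 promoters of measured genes. The 9 genes were ATP6V0B, ATP6V0D1, ATP6V0E2, ATP6V1G1, CTSA, CTSD, CTSF, GAA and NEU1. Windows of 30 bases are shown for 5 of them whose input changes are described below, on the strand of the gene, with the E-box in capitals. CTSF held another match, 123 bases before the start, which is not shown. A match is a description of these letters and not a shown binding site.
ATP6V0B, 57 bases before the start (chr1:43974891-43974920, + strand): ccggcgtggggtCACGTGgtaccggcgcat
ATP6V0B, 39 bases before the start (chr1:43974909-43974938, + strand): gtaccggcgcatCACGTGggcgagttaggt
ATP6V0D1, 59 bases before the start (chr16:67481199-67481228, - strand): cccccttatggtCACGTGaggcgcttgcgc
ATP6V1G1, 58 bases before the start (chr9:114587699-114587728, + strand): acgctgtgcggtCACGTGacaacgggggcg
CTSF, 51 bases before the start (chr11:66568640-66568669, - strand): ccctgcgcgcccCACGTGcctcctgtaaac
NEU1, 126 bases before the start (chr6:31862930-31862959, - strand): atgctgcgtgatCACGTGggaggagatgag

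Levels are log2 intensities minus the 75th percentile of the array, taken over the probes that passed the background filter on every array. A level of 0 therefore lies at that percentile, and levels of different probes are not compared. RIP/input, or enrichment, is the RIP level minus the input level of the same kind of cell on the log2 scale, and the change of enrichment is the miR-634 value minus the miR-NC value. A difference was called at an adjusted p under 0.05 in limma, with Benjamini-Hochberg adjustment over all 10961 genes, and "rose" and "fell" are used below of called differences.

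All 7 markers of squamous carcinoma cells (EGFR, KRT5, KRT14, KRT17, CDH1, TP63 and SFN) were measured on all 8 arrays. Of the markers of other cells, none of 3 for fibroblasts, none of 3 for leukocytes and 1 of 2 for endothelium (VWF) were measured, and the leukocyte marker LYZ had no probe. The others that were not measured were well above background on 5 arrays (PTPRC), 4 (COL1A1), 1 (DCN) or none (COL3A1, CD3E and PECAM1). Between 45.6% and 45.8% of spots were well above background on the input arrays, 33.6% and 34.5% in the miR-NC RIP and 39.97% and 40.02% on the miR-634 RIP arrays. All arrays lay on 1 slide in 1 scan, with inputs in row 1 and RIPs in row 2, so that row and RIP/input cannot be told apart. The miR-NC arrays lay in columns 1 and 2 and the miR-634 arrays in columns 3 and 4. Column and transfected miRNA therefore cannot be told apart either. The part of these differences in the results was not tested.

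In miR-NC cells, 9 members were enriched in the AGO2 RIP, 20 were depleted and 11 were not called. Over all measured genes 33.5% were called enriched and 45.3% depleted. The median of the members was -0.23 on the log2 scale, against -0.12 over all genes. These directions hold for the scaling on the 75th percentile, since with spike-in scaling, on 8 probes that read control RNAs added during labeling, no member was called enriched and 40 were called depleted, against 0.52% and 98.1% of all genes. Members differed among themselves from -1.68 to 1.94 in log2 RIP/input.

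ATP6V1F, a V1 subunit of the rotor stalk, had the highest RIP/input in miR-NC cells. Its levels were 2.45 and 2.50 on the miR-NC input arrays and 4.37 and 4.45 in the miR-NC RIP. The RIP arrays lay clearly above the input arrays, with a log2 RIP/input of 1.94 (SE 0.05, adjusted p = 6.85e-07), higher than that of 97.2% of genes. ATP6V0E1, a small V0 subunit, followed with input levels of 1.73 and 1.68 and RIP levels of 3.71 and 3.54. Its log2 RIP/input was 1.92 (SE 0.08, adjusted p = 2.57e-06), so that these neighbors did not differ beyond their errors.

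At the other end stood CTSZ, the cathepsin that removes single residues from the carboxyl end of proteins. Its levels were 1.16 and 1.32 on the miR-NC input arrays and -0.50 and -0.38 on the RIP arrays. The log2 RIP/input was -1.68 (SE 0.08, adjusted p = 5.12e-06), and 0.803% of genes lay lower. GUSB, beta-glucuronidase, had miR-NC input levels of 2.93 and 2.94 and RIP levels of 1.72 on both arrays. Its log2 RIP/input of -1.21 (SE 0.04, adjusted p = 1.56e-06) was -1.22 in miR-634 cells, where the input levels were 2.96 and 2.98 and the RIP levels 1.78 and 1.74. GUSB thus had the smallest change of enrichment of all members, 0.00 with an SE of 0.06 (adjusted p = 0.994), although it became 1.1 with spike-in scaling.

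In miR-634 cells, 17 members were enriched, 18 were depleted and 5 were not called, against 36.1% and 48.3% of all genes. With spike-in scaling the counts were 2 enriched and 35 depleted, against 6.08% and 84.2% of all genes. The range widened to -2.17 for CTSZ and 4.16 for ATP6V0B. Among the 40 members, 6 were enriched in both kinds of cell and 13 were depleted in both (15% and 32.5%, against 21.3% and 32.9% of all measured genes). A further 6 members (ATP6V0B, ATP6V0C, ATP6V1E1, CTSB, CTSF and PSAP) went from depleted to enriched, and GLA alone went from enriched to depleted (15% and 2.5%, against 8.47% and 6.08% of all genes). Across the 40 members, which share their arrays, the Pearson r between RIP/input in the 2 kinds of cell was 0.43 (Spearman rho 0.42), against 0.58 (0.60) across all measured genes. Without ATP6V0B it was 0.63 (0.51), and genes are not independent replicates.

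**Figure D1:**
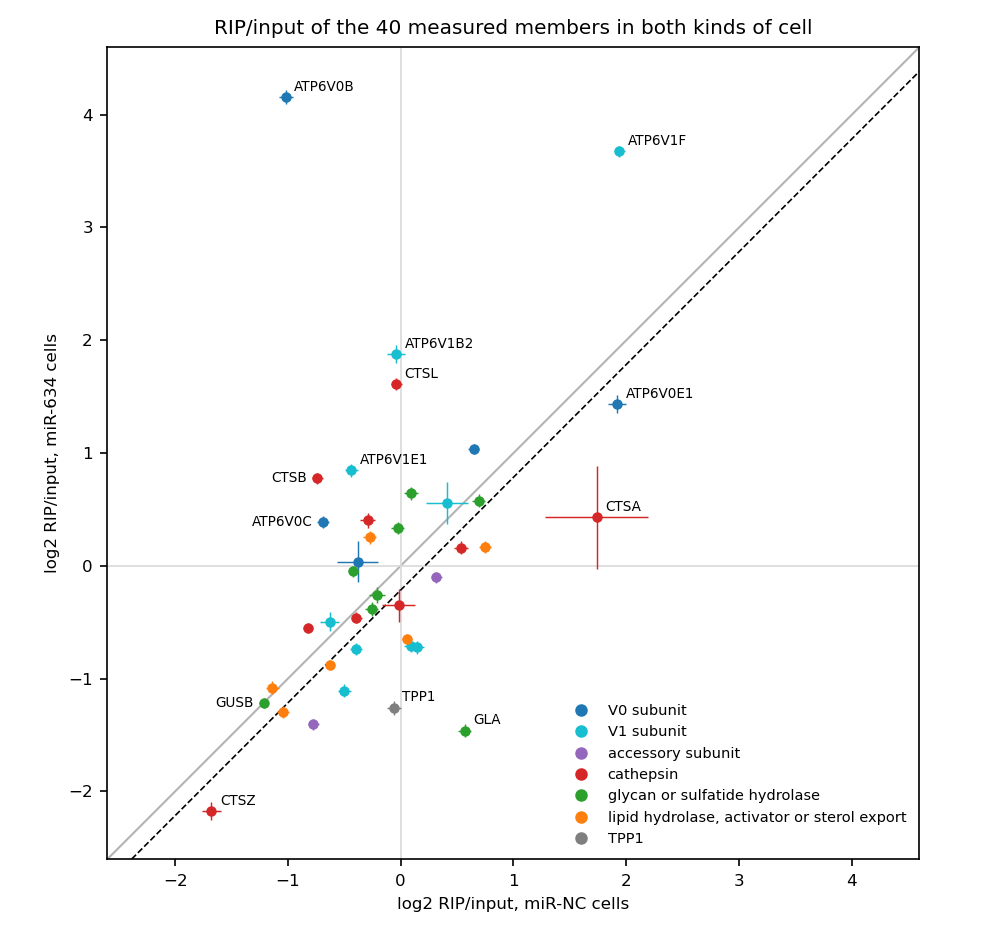
Log2 RIP/input of each of the 40 measured members in miR-NC cells (x axis) and in miR-634 cells (y axis), with standard errors of the limma fit as bars. The solid diagonal marks equal RIP/input and the dashed one the median change of all measured genes, -0.22; ATP6V0B stood at -1.02 and 4.16, and CTSZ was the lowest in both. With spike-in scaling all members lay under 0 on the x axis.

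The change of enrichment was called higher in 14 members and lower in 15, with 11 not called. Of all measured genes, 28.1% were called higher and 43.1% lower. The median of the members was -0.06, against -0.22 over all genes, and 23 of the 40 members lay above the median gene. The median gene moved with the scaling, to -0.10 with the percentile taken over all probes and to 0.89 with spike-in scaling, and with the latter 30 members were called higher and 1, GLA, lower, against 66.8% and 1.61% of all genes. Larger changes were seen in 7 members above 1 on the log2 scale (13.3% of all genes) and in 3 below -1 (8.55%). The V-ATPase subunits, with 6 higher and 7 lower of 16, spread more widely than the hydrolases and other members, with 8 higher and 8 lower of 24, the standard deviations across genes being 1.53 and 0.81. Without ATP6V0B, left out after its value was seen, the V-ATPase value was 0.92, and the difference of spread was not tested. In the arrays of each number, 35 of the 40 members changed in the same direction, the exceptions being ATP6V1H, CTSH, HEXA, NPC1 and GUSB, none of which was called. This count was not made over all measured genes, so it is not a trait of the members. Between the arrays numbered 1 and 2, the changes had a Pearson r of 0.97 across the members and 0.94 across all measured genes.

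**Figure D2:**
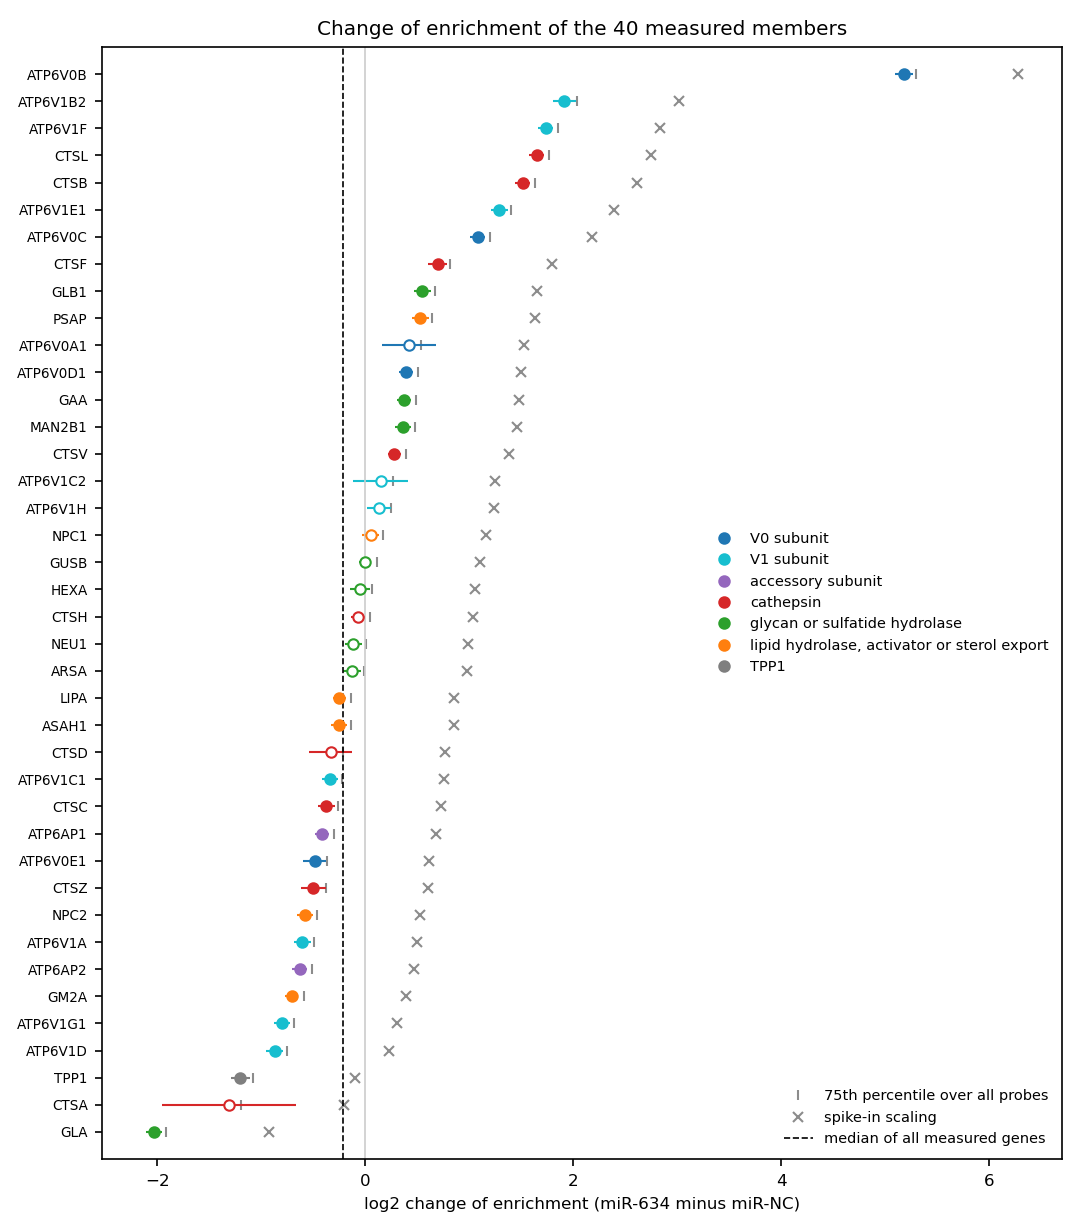
Log2 change of enrichment (miR-634 minus miR-NC) of the 40 measured members in order of size, with standard errors as bars, filled points for an adjusted p under 0.05 and the median of all measured genes as a dashed line. Gray strokes and crosses give the value with the percentile over all probes and with spike-in scaling. Each of these scalings shifts every gene by the same amount, so the order of the members is kept by construction. With spike-in scaling all members except GLA, CTSA and TPP1 lay above 0.

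Among the V0 subunits, 3 of 5 measured rose in enrichment, 1 fell and 1 was not called. ATP6V0B, which encodes the c'' proteolipid of the proton-carrying ring, changed most of all members. Its levels were 3.92 and 3.88 on the miR-NC input arrays and 2.82 and 2.94 in the miR-NC RIP. In miR-634 cells they were 2.90 and 3.01 on the input arrays and 7.11 and 7.12 on the RIP arrays. Both miR-634 RIP arrays stood far above the other arrays, while the miR-634 input arrays had fallen to the range of the miR-NC RIP arrays. The enrichment went from -1.02 to 4.16, a log2 change of 5.18 (SE 0.09, adjusted p = 6.08e-07) or 36.2-fold, and 99.98% of genes changed less. With spike-in scaling the log2 change was 6.28.

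ATP6V0C, the c proteolipid that makes up most of the ring, rose by a log2 change of 1.08 (SE 0.07, adjusted p = 2.90e-05), from -0.69 to 0.39. Its RIP levels were 5.21 and 5.13 in miR-NC cells and 6.35 and 6.32 in miR-634 cells, while its 4 input levels lay between 5.86 and 5.98. ATP6V0D1, the d subunit that couples the ring to the central stalk, rose by 0.39 (SE 0.06, adjusted p = 0.00164), and it was enriched in both kinds of cell. ATP6V0E1 fell by 0.49 on the log2 scale (SE 0.11, adjusted p = 0.00707) with RIP levels of 3.16 and 3.02 in miR-634 cells, and remained enriched there at 1.43. With spike-in scaling the change of ATP6V0E1 was 0.62. ATP6V0A1, the a subunit that forms the proton path beside the ring, had a change of 0.42 (SE 0.26, adjusted p = 0.187), which was called without the second miR-NC RIP array (0.67, adjusted p = 0.0217) and with spike-in scaling (1.52).

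ATP6V0E2, a paralog of ATP6V0E1, was not measured by the rule, since it was not well above background on either miR-NC RIP array. Its level in the miR-634 RIP was at least 3.96-fold that in the miR-NC RIP. The bound sets the mean of both miR-634 RIP arrays against a floor on each miR-NC RIP array, and it was not tested. This floor was the lowest signal among probes well above background, or the probe's own signal where that was higher. The probe's own levels on the miR-NC RIP arrays were far apart, at -6.97 and -5.24. The V0 subunit ATP6V0A2 was not analyzed here, because no probe matched it.

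Among the V1 subunits, 3 of 9 rose in enrichment, 4 fell and 2 were not called. ATP6V1B2, the B subunit of the ATP-splitting hexamer, had levels of -1.81 and -1.86 on the miR-NC input arrays and -1.81 and -1.94 in the miR-NC RIP. In miR-634 cells its input levels were -2.29 and -2.49 and its RIP levels -0.53 and -0.49. Input and RIP overlapped in miR-NC cells and were far apart in miR-634 cells, with the input below and the RIP above every miR-NC array. The log2 change of enrichment was 1.91 (SE 0.11, adjusted p = 1.75e-05). ATP6V1F, already enriched in miR-NC cells, reached RIP levels of 5.36 and 5.42 over input levels of 1.69 and 1.74 in miR-634 cells. Its log2 change was 1.74 (SE 0.07, adjusted p = 4.35e-06), from 1.94 to 3.67. ATP6V1E1, a subunit of the peripheral stalks, rose by 1.29 (SE 0.08, adjusted p = 2.32e-05).

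ATP6V1D, a subunit of the central stalk, had the largest fall among the V1 subunits. Its levels were -1.61 and -1.58 on the miR-NC input arrays, -1.40 and -1.50 in the miR-NC RIP, -1.37 and -1.44 on the miR-634 input arrays and -2.08 and -2.18 on the miR-634 RIP arrays. The miR-634 RIP arrays lay below the other arrays, which were close together. The log2 change was -0.87 (SE 0.08, adjusted p = 1.52e-04), but 0.23 with spike-in scaling (adjusted p = 0.460). ATP6V1G1, of the peripheral stalks, had -0.80, and ATP6V1A, the catalytic subunit and partner of ATP6V1B2 in the hexamer, had -0.61 with RIP levels of 1.44 and 1.48 in miR-NC cells and 0.89 and 0.81 in miR-634 cells. Both falls were called (adjusted p = 1.51e-04 and 6.30e-04), and both lay above 0 with spike-in scaling, at 0.30 and 0.50. The subunits of the same hexamer, ATP6V1A and ATP6V1B2, thus changed in opposite directions relative to the median gene, by -0.39 and 2.13.

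ATP6V1C1, which joins the peripheral stalks to the membrane sector, was read by 2 probes of the same accession that did not move together. The brighter one gave a fall of 0.34 on the log2 scale (SE 0.08, adjusted p = 0.00693), that is -0.24 and -0.44 in the arrays of each number. The dimmer one gave rises of 1.32 and 1.06, and the mean of both probes a change of 0.42 (adjusted p = 0.00299), so no direction is given for this gene, and the counts take it by its brighter probe. ATP6V1C2 (0.15) and ATP6V1H (0.13) were not called (adjusted p = 0.634 and 0.338). Both accessory subunits, ATP6AP1 and the prorenin receptor ATP6AP2, fell in enrichment, by 0.42 and 0.63 on the log2 scale (adjusted p = 0.00168 and 3.00e-04), with 0.68 and 0.47 under spike-in scaling.

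Among the cathepsins, 4 of 9 measured rose in enrichment, 2 fell and 3 were not called. CTSL, an endopeptidase of the papain family, had levels of 2.49 on both miR-NC input arrays, 2.40 and 2.50 in the miR-NC RIP, 2.46 and 2.42 on the miR-634 input arrays and 4.03 and 4.07 on the miR-634 RIP arrays. The first 6 arrays lay together and the miR-634 RIP arrays stood alone above them. The log2 change was 1.65 (SE 0.07, adjusted p = 5.43e-06), or 3.13-fold. CTSB, the related cathepsin B, had levels of 0.04 and 0.03 on the miR-NC input arrays and -0.70 and -0.72 in the miR-NC RIP. In miR-634 cells the levels were -0.11 and -0.09 on the input arrays and 0.62 and 0.73 on the RIP arrays. CTSB was thus below its input in the miR-NC RIP and above it in the miR-634 RIP, with a log2 change of 1.51 (SE 0.07, adjusted p = 6.83e-06). The study chose CTSB and CTSL as candidate targets on these arrays together with protein levels, so their rise is not independent evidence of its direction.

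CTSF rose by 0.70 and CTSV, the close relative of CTSL found in few tissues, by 0.28 (adjusted p = 6.78e-04 and 0.00678). CTSZ fell by 0.50 on the log2 scale (SE 0.12, adjusted p = 0.00817), with miR-634 input levels of 1.91 and 1.86 and RIP levels of -0.22 and -0.36. Its RIP levels did not change by a called amount (0.15, adjusted p = 0.134), so that the fall came with the rise of its input described below. CTSC, which activates granule proteases, fell by 0.38 on its brightest probe (adjusted p = 0.00629) and had -0.77 on its second probe, while its dimmest probe was not well above background on either miR-NC RIP array. The falls of CTSZ and CTSC were not called with the percentile over all probes (adjusted p = 0.0727 and 0.0749), and were above 0 with spike-in scaling, at 0.60 and 0.73.

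CTSA, the protective protein that keeps beta-galactosidase and sialidase stable, had the widest spread between duplicates. Its RIP levels were 5.27 and 5.30 in miR-NC cells but 3.40 and 5.02 in miR-634 cells, with input levels from 3.54 to 3.79. The change of -1.31 (SE 0.64, adjusted p = 0.111) was not called, and it was -2.12 without the second miR-634 RIP array and -0.50 without the first, both called. The dimmer probe of CTSA gave 2.84 and 3.02 on these 2 arrays and changes of -0.36 and -0.19. The first array was thus lower on both probes, but by far more on the brighter one. CTSD, the aspartic endopeptidase cathepsin D, had a change of -0.33 (adjusted p = 0.188), called lower without the second miR-NC input array (-0.56, adjusted p = 0.00827) and higher with spike-in scaling (0.77). CTSH had -0.07 (adjusted p = 0.403). CTSK, the cathepsin of bone resorption, was dim, not well above background, on all 4 RIP arrays, and its miR-634 input was at least 1.62-fold over the miR-634 RIP. In miR-NC cells the same comparison gave no bound, with a mean input level of -5.70 against -5.87 in miR-634 cells. Neither comparison was tested.

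**Figure D3:**
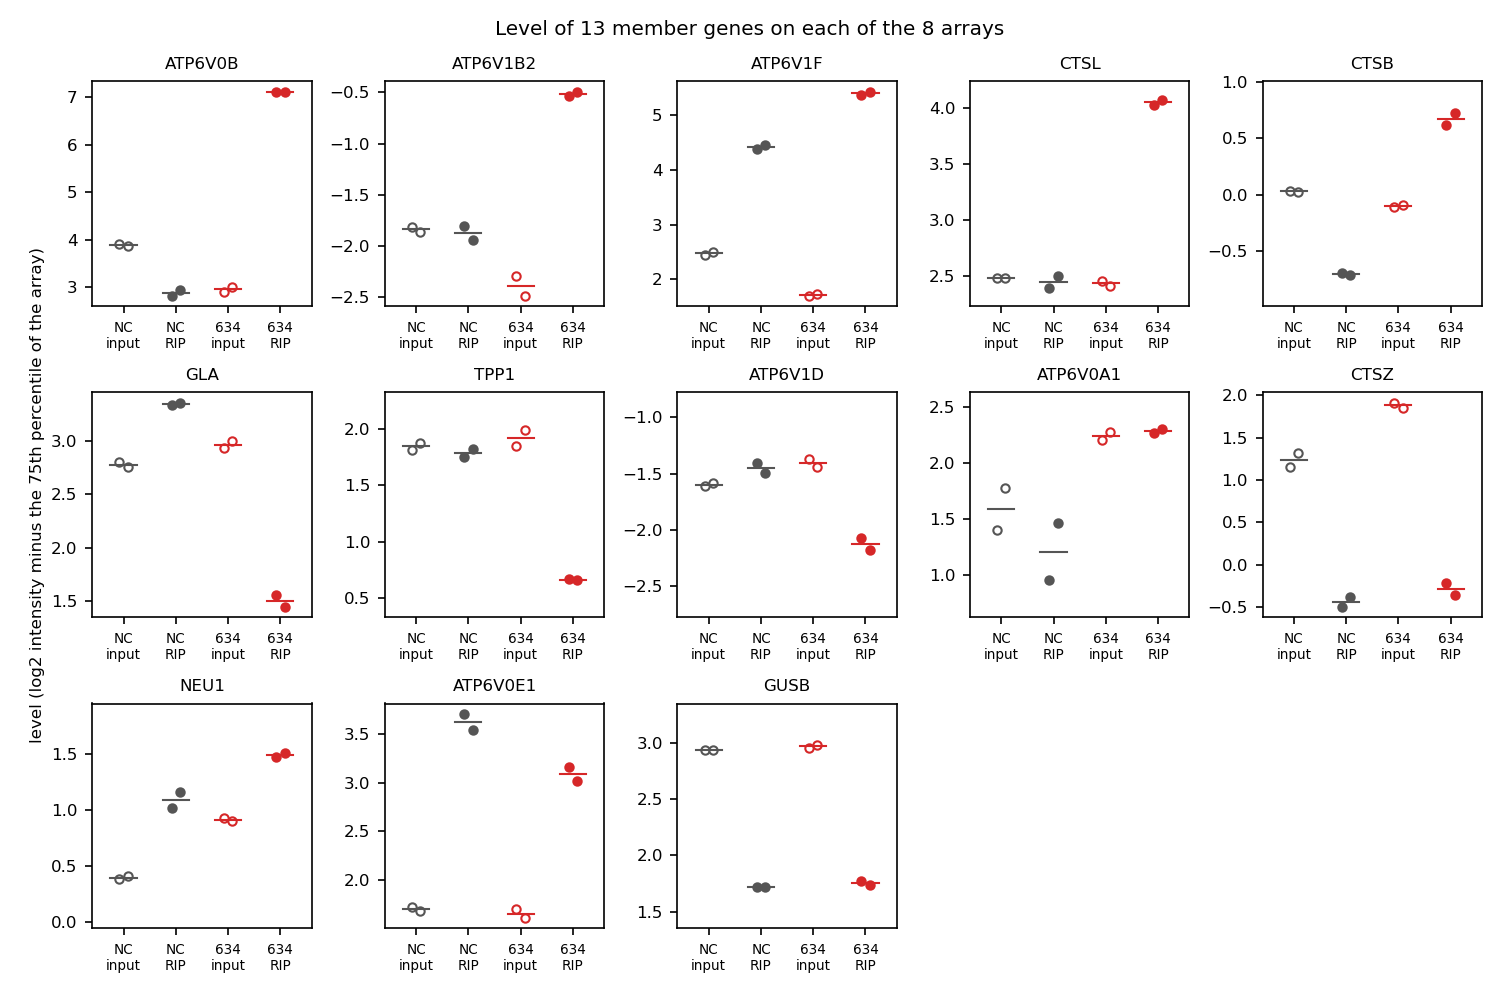
Level (log2 intensity minus the 75th percentile of the array) of 13 members on each array, with miR-NC cells in gray and miR-634 cells in red, input as open and RIP as filled circles, and group means as lines. Each panel has its own scale; the miR-634 RIP arrays stand above the rest for ATP6V0B, ATP6V1B2, ATP6V1F, CTSL and CTSB and below the rest for GLA, TPP1 and ATP6V1D, of which ATP6V1D alone turned above 0 in its change of enrichment with spike-in scaling.

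Among the 8 hydrolases of glycans and sulfatides, 3 rose, 1 fell and 4 were not called. GLA, alpha-galactosidase A, the enzyme lacking in Fabry disease, had the largest fall of all called members. Its levels were 2.80 and 2.75 on the miR-NC input arrays and 3.34 and 3.35 in the miR-NC RIP. In miR-634 cells they were 2.93 and 3.0 on the input arrays and 1.56 and 1.45 on the RIP arrays. The RIP lay above the input in miR-NC cells and below it in miR-634 cells, with no overlap. The log2 change was -2.03 (SE 0.08, adjusted p = 3.24e-06), a fold change of enrichment of 0.245, and 0.903% of genes changed further down. It was the one member called lower with spike-in scaling too, at -0.93 (adjusted p = 0.00243).

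The rises in this group were GLB1, beta-galactosidase, with 0.55, GAA, acid alpha-glucosidase, with 0.37, and MAN2B1, a lysosomal alpha-mannosidase, with 0.36 (adjusted p from 0.00124 to 0.00652). NEU1, the sialidase, was enriched by a similar amount in both kinds of cell, 0.69 and 0.58, and its change of -0.11 was not called (adjusted p = 0.254). HEXA, the alpha chain of beta-hexosaminidase, had -0.05 and ARSA, the sulfatase of sulfatides, had -0.13 (adjusted p = 0.664 and 0.224). These 3 values, too, lay above 0 with spike-in scaling, between 0.98 and 1.05.

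Of the 6 genes of lipid degradation, activators and sterol export, 1 rose, 4 fell and 1 was not called. PSAP, the precursor of the saposins that present sphingolipids to their hydrolases, rose by 0.53 (SE 0.08, adjusted p = 0.00121), and its dimmer probe gave 0.67. GM2A, the activator that lifts GM2 ganglioside for HEXA, fell by 0.71 on the log2 scale (SE 0.06, adjusted p = 1.18e-04), with -1.0 on its dimmer probe. NPC2, which hands cholesterol to NPC1, fell by 0.58 (adjusted p = 5.09e-04), whereas NPC1 itself had a change of 0.05 (adjusted p = 0.568). With spike-in scaling GM2A and NPC2 had 0.40 and 0.52. LIPA, acid lipase, and ASAH1, acid ceramidase, each fell by 0.25 (adjusted p = 0.0117 and 0.0203), a fall close to that of the median gene. The calls of LIPA and ASAH1 were lost with the percentile over all probes, and both turned to 0.85 with spike-in scaling. The call of ASAH1 was also lost without the first miR-634 input, the second miR-634 RIP or the first miR-NC input array (adjusted p from 0.0510 to 0.0750).

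TPP1, the tripeptidyl peptidase lacking in a form of neuronal ceroid lipofuscinosis, had levels of 1.82 and 1.88 on the miR-NC input arrays, 1.75 and 1.83 in the miR-NC RIP, 1.85 and 1.99 on the miR-634 input arrays and 0.67 and 0.66 on the miR-634 RIP arrays. The miR-634 RIP arrays lay alone below the others. Its log2 change was -1.20 (SE 0.09, adjusted p = 4.46e-05), its dimmer probe gave -0.88 in both pairs of arrays, and with spike-in scaling the change was -0.10 and not called (adjusted p = 0.759).

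In the input, 9 members rose with miR-634, 3 fell and 28 were not called. Over all measured genes 11.6% were called higher and 12.1% lower, and the medians were 0.08 for the members and -0.01 for all genes. With spike-in scaling no member was called higher and 3 were called lower, against 0.228% and 7.71% of all genes. No member changed by more than 1 on the log2 scale. The rises were ATP6V0A1, CTSZ, NEU1, NPC1, ATP6V0D1, MAN2B1, ATP6V1C1, ATP6AP1 and LIPA, from 0.65 down to 0.17, although the dimmer probe of ATP6V1C1 had -0.43. The number of rises depended on the setting, with 5 under the percentile over all probes, 11 with quantile normalization and 12 with the intensity trend. The shares of all genes called higher were 9.76%, 12.5% and 12.7% in these settings. When an input array was left out, fewer members and a smaller share of all genes were called higher.

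ATP6V0A1 had input levels of 1.41 and 1.78 in miR-NC cells and 2.21 and 2.28 in miR-634 cells, a log2 change of 0.65 (SE 0.18, adjusted p = 0.0470). The groups did not overlap, but the call was lost when any input array or any miR-634 RIP array was left out (adjusted p from 0.0599 to 0.215). Its RIP levels were 0.95 and 1.46 in miR-NC cells and 2.26 and 2.30 in miR-634 cells, so that RIP and input moved the same way. CTSZ rose by 0.65 (SE 0.08, adjusted p = 0.00364), from the input levels of 1.16 and 1.32 to 1.91 and 1.86 given above. NEU1 rose by 0.51 (SE 0.06, adjusted p = 0.00240), from 0.39 and 0.41 to 0.92 and 0.90, and its RIP levels went from 1.02 and 1.16 to 1.47 and 1.51. CTSZ and NEU1 had no overlap between the groups, and 99.3% and 98.2% of genes had a lower input change. With spike-in scaling the input changes of ATP6V0A1, CTSZ and NEU1 were 0.41, 0.41 and 0.28 and none was called.

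The members that fell in the input were ATP6V0B by 0.94 on the log2 scale (SE 0.06, adjusted p = 5.23e-04), ATP6V1F by 0.75 (SE 0.05, adjusted p = 5.86e-04) and ATP6V1B2 by 0.55 (SE 0.08, adjusted p = 0.00545). Of all genes, 0.547%, 1.28% and 2.96% had a lower input change. All are V-ATPase subunits, and they are also the members with the largest rises of enrichment. A lower input raises RIP/input by itself, but the RIP level also rose in each, by 4.24, 0.98 and 1.36. None of the 24 measured hydrolases and other members of the list fell in the input. Outside the list, 4 of 22 other measured lysosomal hydrolases did (18.2%, against 12.1% of all genes). The inputs of CTSL and CTSB had -0.05 and -0.13 (adjusted p = 0.529 and 0.108).

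The RIP level alone was called higher in miR-634 cells for 18 members and lower for 11. Over all measured genes 30.9% were called higher and 46.5% lower. Under spike-in scaling the counts were 29 and 1, against 66.4% and 3.26% of all genes. Each of the 14 members that rose in enrichment also rose in the RIP, with the input called lower in 3, higher in 2 and not called in 9. Of the 15 that fell in enrichment, 11 fell in the RIP, and for the other 4 (ATP6V1C1, CTSZ, LIPA and ASAH1) the RIP was not called. The change of enrichment equals the RIP change minus the input change, so this overlap is in part built in. Input changes also varied less than RIP changes over all measured genes (standard deviations 0.25 and 0.85). The overlap was not counted over all genes, so it is not a trait of the members. Across the 40 members Pearson's r between the input change and the RIP change was -0.44 and Spearman's rho -0.16, against -0.22 and -0.13 across all measured genes, and -0.15 and -0.10 without ATP6V0B.

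**Figure D4:**
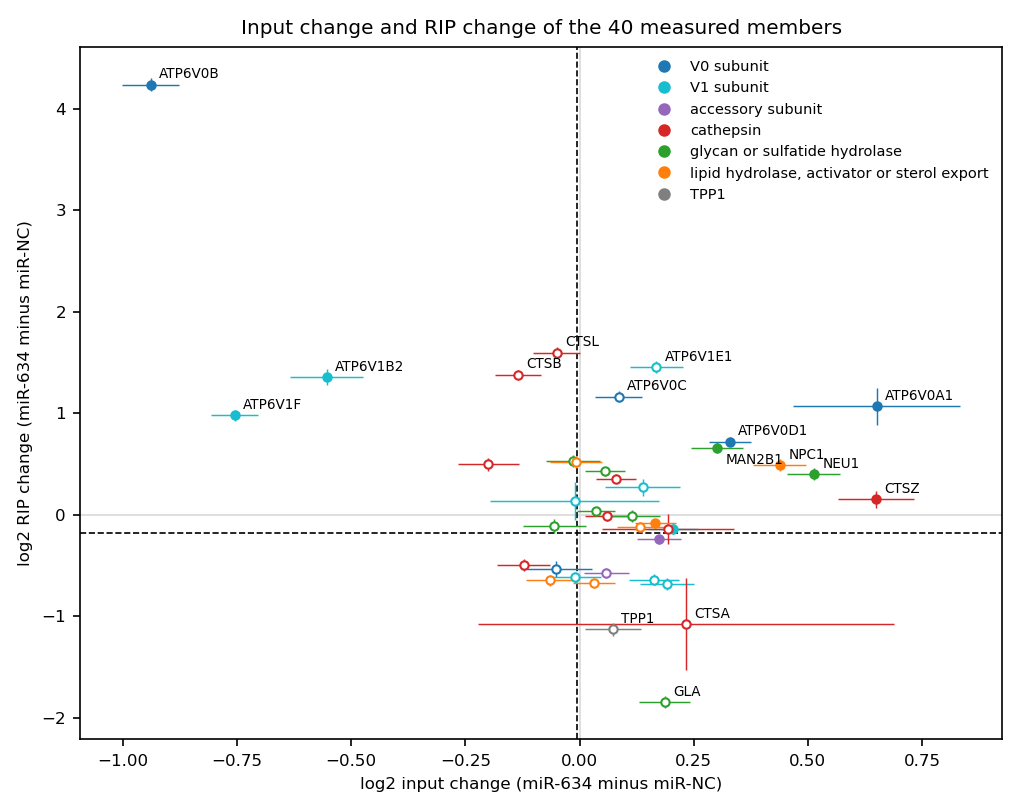
Log2 input change (x axis) and log2 RIP change (y axis) of the 40 measured members, miR-634 minus miR-NC, with standard errors as bars, filled points for a called input change and dashed lines at the medians of all measured genes. ATP6V0B, ATP6V1F and ATP6V1B2 lie to the left with higher RIP levels, and the called rises of input lie to the right. Spike-in scaling shifts all input changes down and all RIP changes up, each by the same amount for every gene. The directions of ATP6V0B, ATP6V1F and ATP6V1B2 therefore could not turn under it, and none of the rises of input was called. CTSA, with 1 low RIP array, has wide bars.

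The promoter E-box divided the measured members into 8 with CACGTG and 22 without it among those with a promoter at hand. Their median changes of enrichment were 0.13 and -0.03, and their median input changes 0.18 and 0.08. The input rose in 2 of the 8 (ATP6V0D1 and NEU1) and in 6 of the 22. Among the genes whose windows are shown above, ATP6V0B fell in the input, ATP6V0D1 and NEU1 rose, and ATP6V1G1 and CTSF were not called (adjusted p = 0.0796 and 0.0766).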

How the data were processed

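Per the file headers, the authors deposited 1 scanner file per array from Agilent Feature Extraction 12.0.1.1 (the submitters' processing notes give 9.1), with Cy3 intensities that this program had corrected for background (processed signal). A processed table of the same arrays, deposited as log2 values, was matched by the log2 intensity after subtraction of a 75th percentile taken over all probes and of each probe's median over the arrays (Pearson r of 1 in each column, column medians from -0.44 to 0.88), and its direction, normalization and scale thus follow from the intensities. It served as an alternative.

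Spots marked as controls or outliers were removed and the spots of a probe averaged. From the log2 values, the 75th percentile of the array was subtracted, taken over the 16810 of 58201 probes (28.9%) well above background on all arrays. No spot was saturated. Probes were named by matching their RefSeq accession to a RefSeq gene table (31104 probes, 22439 genes). The array annotation is on an older build than the promoter table, so gene coordinates are not given. limma 3.58.1 (R 4.3.3) fitted 4 group means on all 8 arrays, with eBayes and Benjamini-Hochberg adjustment, and Python 3.11.15 with pandas 2.3.3 and matplotlib 3.10.9 made the counts and plots. The fit was also run on simulated data with independent noise and far fewer changed genes than were called here. That run therefore does not measure its errors on these data. With 2 arrays per group, the number of arrays limits the precision.

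Array values are given for the 5 largest rises and 3 largest falls of enrichment, the 3 largest rises and falls of input, the 2 highest and 2 lowest RIP/input in miR-NC cells, and CTSB and CTSL. Members, lists and this rule were chosen with earlier results of these data known. Alternatives were normexp (offset 50) followed by quantile normalization, the latter alone, scaling by the median, by the percentile over all probes or by 8 spike-in probes, other filters, an intensity trend, a replicate block, the mean over a gene's probes and leaving out each array. A slide block could not be fitted, since there was 1 slide and 1 scan.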

Additional observations from a re-analysis of the deposited data

Results flagged for a closer look

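For 7 members, RIP/input was called in opposite directions in miR-NC and miR-634 cells, and the difference between the cells was itself called by limma after Benjamini-Hochberg adjustment. This is 17.5% of the 40 members, against 14.5% of all 10961 measured genes. The enrichment went from lower than 0 to higher than 0, on the log2 scale, for ATP6V0B with a change of 5.18, CTSB with 1.51, ATP6V1E1 with 1.29, ATP6V0C with 1.08, CTSF with 0.70 and PSAP with 0.53. It went the other way for GLA alone, with a change of -2.03. Spike-in scaling adds the same amount to the log2 change of every gene, upward here, so the rises could not change direction under it. GLA, which could have, kept its fall. The crossing of 0 holds for the 75th percentile scaling. With spike-in scaling all 40 members were called depleted in miR-NC cells and 2 were called enriched in miR-634 cells.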

How the results depend on the processing

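Of the 29 called changes of enrichment, 28 were called in every fit with 1 array left out, the exception being ASAH1, and 24 kept their direction and call under every alternative run except spike-in scaling. ASAH1, ATP6V1C1, CTSC, CTSZ and LIPA did not. Of the 12 called input changes 7 did, without ATP6AP1, ATP6V0A1, ATP6V1C1, LIPA and MAN2B1. The cause was not tested, and these counts of stable calls were not made over all measured genes.

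Spike-in scaling turned the change of enrichment to 0.62 for ATP6V0E1, 0.50 for ATP6V1A, 0.76 for ATP6V1C1, 0.23 for ATP6V1D, 0.30 for ATP6V1G1, 0.68 for ATP6AP1, 0.47 for ATP6AP2, 0.73 for CTSC, 0.77 for CTSD, 1.03 for CTSH, 0.60 for CTSZ, 1.05 for HEXA, 0.99 for NEU1, 0.52 for NPC2, 0.85 for LIPA and ASAH1, 1.1 for GUSB, 0.98 for ARSA and 0.40 for GM2A. It turned the input change to -0.034 for ATP6V1C1, -0.063 for ATP6AP1 and -0.072 for LIPA. It gave 0 members higher and 40 lower for miR-NC RIP/input, 2 and 35 for miR-634 RIP/input, 30 and 1 for the change of enrichment, 0 higher for the input and 29 and 1 for the RIP. The mean of the probes turned ATP6V1C1 to 0.42 in enrichment and to -0.11 in the input.

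The number of input rises, 9, was 5 with the percentile over all probes, the authors' values or a filter on the input arrays, 4 with no filter, and from 4 to 11 with 1 array left out. The share of all genes called higher in the input, 11.6%, was 9.76% with the percentile over all probes and 9.77% with the authors' values. It was 6.59% of 13664 genes with the filter on the input arrays and 1.64% of 22434 genes with no filter. The share over all genes thus fell in these settings too. The median of the members minus that of all genes, in log2, was -0.11 for miR-NC RIP/input, 0.10 for miR-634 RIP/input, 0.16 for its change, 0.08 for the input and 0.27 for the RIP. With the filter on the input arrays the first 3 were -0.037, 0.15 and 0.12, and with no filter all 5 were -0.62, -0.43, 0.42, 0.16 and 0.60. For miR-634 RIP/input, its change and the RIP it was 0.036, 0.086 and 0.22 with quantile normalization and -0.027, 0.036 and 0.21 after normexp, and 0.32 for the RIP with the mean of the probes. With 1 array left out it ran from -0.12 to -0.061 for miR-NC RIP/input, from -0.062 to 0.11 for miR-634 RIP/input and from 0.21 to 0.27 for the RIP.

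Arrays share their numbers across groups, but no label says that a number pairs them, and deviations of arrays with the same number correlated from -0.04 to 0.08. With the number as a replicate block, 14 members rose and 15 fell in enrichment, against 28.1% and 43.1% of all genes. In the input 6 rose and 3 fell, against 9.82% and 10.8% of all genes, and ATP6V1C1, ATP6AP1 and LIPA were no longer called. The slide as a block was not run, since all arrays shared 1 slide and 1 scan.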

Other observations

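Among 54 other lysosomal genes, 40 were measured, and their change of enrichment rose in 19, fell in 13 and was not called in 8, with a median of 0.22 against -0.22 over all measured genes, of which 28.1% rose and 43.1% fell. Of 22 other hydrolases 11 rose and 6 fell, of 8 genes of mannose 6-phosphate tagging and sorting 5 rose and 1 fell, and of 10 genes of the TFEB family and the Ragulator and Rag complexes 3 rose and 6 fell. The largest rises were those of LAMTOR4, a Ragulator subunit, with a log2 change of 2.58, and IDS, iduronate sulfatase, with 2.18. Among the falls was that of RRAGA, a Rag GTPase, with -1.0. The input fell for LAMTOR4 by 0.50 and for IDS by 0.42 on the log2 scale, while that of RRAGA was not called (0.09, adjusted p = 0.304). With spike-in scaling the change of RRAGA was 0.10 and not called (adjusted p = 0.757), and 33 of the 40 genes were called higher and none lower, against 66.8% and 1.61% of all genes. None of 7 further V-ATPase subunits was measured.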
